A study of Mus musculus with 9 samples.

Results

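Small leucine-rich proteoglycans (SLRPs) are secreted proteins with a short protein core built from leucine-rich repeats, which bind collagen fibrils and growth factors in the extracellular matrix. Most of them carry chains of chondroitin sulfate, dermatan sulfate or keratan sulfate, and they set the spacing and thickness of collagen fibrils in connective tissue. In the brain, their best known sources are fibroblasts of the meninges and of the outer wall of larger vessels. The 8 genes described here, Dcn, Fmod, Lum, Bgn, Ogn, Prelp, Omd and Aspn, were chosen by symbol out of 22092 genes counted, and all 8 passed the filter on low counts. Another 10 genes of the SLRP family were treated as a separate list.

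The mice carried the Aldh1L1-L10aGFP transgene, which puts a GFP-tagged ribosomal protein under the control of an astrocyte promoter, and all were 2 months old. Tagged ribosomes were pulled down with the mRNAs bound to them (translating ribosome affinity purification, TRAP), either from whole brain, giving 3 whole astrocyte TRAP libraries of 1 brain each, or from mechanically purified brain vessels, giving 6 endfeet TRAP libraries of 8 pooled mice each. Astrocyte endfeet, the ends of astrocyte processes that sheathe vessels, stay attached to such vessels. The vessels were homogenized with more strokes than the brains, and the choroid plexus was removed from the brains before extraction. The comparison asks which mRNAs are more abundant on tagged ribosomes around vessels than on those of the whole astrocyte. The whole astrocyte libraries held 35984144 to 43521208 counts each and the endfeet libraries 2319495 to 13450588. Values in the next paragraphs are CPM, the counts scaled to a common library size after TMM normalization, and errors are the SD over libraries unless called SE.

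Markers of cell types other than astrocytes differed between the groups, and these values stand beside every result below. Summed CPM of 8 endothelial markers was 3.86 to 5.58 in the whole astrocyte libraries against 3030 to 4590 in the endfeet libraries, and that of 9 mural markers 34.4 to 36.2 and 3540 to 8060. Of the endothelial markers, 1 had 0 counts in all whole astrocyte libraries. The 12 fibroblast markers summed to 31.4 to 48.1 CPM and 492 to 1640 CPM. Ependymal and choroid plexus markers summed to 89100 CPM in endfeet library 1, the highest, and 6770 CPM in endfeet library 5, the lowest. In whole astrocyte libraries 1, 2 and 3 they summed to 49.8, 1440 and 1180 CPM. Most of this sum was Ttr, at 86800 and 6390 CPM in these endfeet libraries and 28.4, 1380 and 1130 CPM in whole astrocyte TRAP. The 10 astrocyte markers summed to 22400 to 24200 CPM and 8750 to 27500 CPM, with 0 of them higher and 5 lower in endfeet, among them Aldoc, a glycolytic enzyme (log2 fold change -4.00, SE 0.353), whereas the glutamate transporter Slc1a2 was at 0.93 (SE 0.387) and did not pass. The part of other cell types in the results below was not tested, and in such bulk libraries a change in the number of cells of a type cannot be told apart from a change in RNA per cell.

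All 8 SLRP mRNAs were higher in endfeet TRAP than in whole astrocyte TRAP, with a median log2 fold change of 4.43. Over all 14427 genes tested, 20.7% were higher and 13.9% lower in endfeet, and the median log2 fold change was 0.10. Every endfeet library lay above every whole astrocyte library for 7 of the 8 genes, which was the case for 18.9% of all genes tested, and Omd was the exception. Together the 8 mRNAs made up 126 to 171 CPM in whole astrocyte TRAP and 2050 to 3400 CPM in endfeet TRAP, a ratio of means of 18.0. Adjusted p-values are from the quasi-likelihood test of edgeR, corrected by Benjamini-Hochberg over all genes tested, and since libraries were brains or pools of mice, p-values measure the spread between these libraries.

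**Figure D1:**
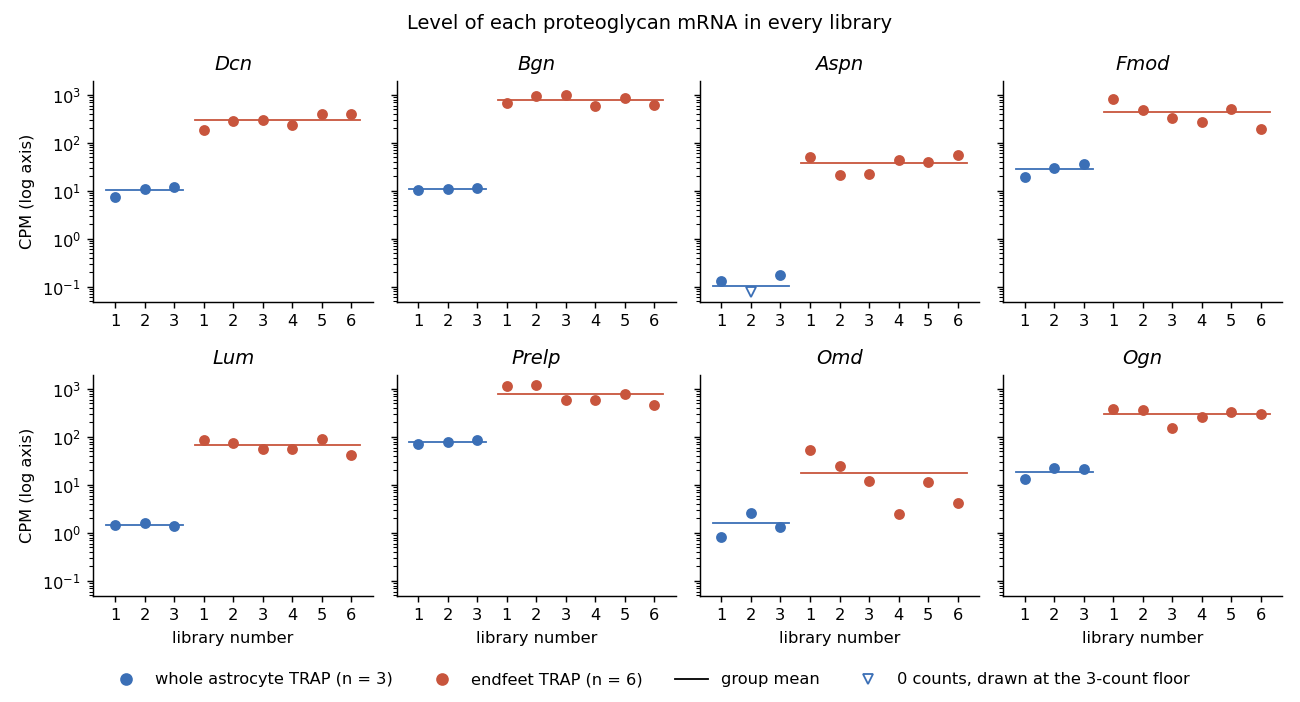
Each panel plots 1 SLRP gene, with the library number on the x axis and CPM on a log axis; points are libraries, lines are group means and the open triangle marks 0 counts (whole astrocyte TRAP, n = 3; endfeet TRAP, n = 6). The groups are separate in every panel except that of Omd, where endfeet library 4 (2.50 CPM) lies below whole astrocyte library 2 (2.59 CPM).

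Dcn, Bgn and Aspn form the first class of the family. Decorin (Dcn), which carries a dermatan or chondroitin sulfate chain and binds collagen fibrils and TGF-beta, was at 7.46, 11 and 12.2 CPM in whole astrocyte libraries 1, 2 and 3. Endfeet libraries ran from 183 CPM (library 1) through a median of 293 to 402 CPM (library 5). The lowest endfeet library thus stood far above the highest whole astrocyte library. The log2 fold change was 4.88 (SE 0.390, adjusted p = 1.43e-06, edgeR), a fold of 29.4, from 10.2 ± 2.46 CPM (SD, n = 3) to 301 ± 85.7 CPM (SD, n = 6). Dcn spans chr10:97479609-97518143 on the plus strand (mm10), and the transcript used has 8 exons.

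Biglycan (Bgn), a close relative of decorin that also signals through Toll-like receptors when soluble, was the most even of the 8 in both groups. It was measured at 10.4, 10.7 and 11.3 CPM in whole astrocyte TRAP, and between 595 CPM (library 4) and 995 CPM (library 3) in endfeet TRAP, with a median of 761. Its coefficient of variation was 4.05% and 22.6%, and no library of one group came near the other. The log2 fold change was 6.17 (SE 0.345, adjusted p = 1.32e-07, edgeR). Bgn lies at chrX:73483602-73495933, plus strand. All 8 of its annotated transcripts had higher means in endfeet TRAP, and a read counts on every transcript that it overlaps. The transcript used, with 8 exons, was at 10.8 and 774 CPM, a ratio of means of 71.8, and the ratios of the others ran from 14.7 to 107. The lowest ratio was that of an unspliced transcript of 1 exon (0.197 and 2.90 CPM), whose use as the longest transcript gave a log2 fold change of 3.83.

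Asporin (Aspn), which resembles decorin but has a run of aspartates in place of a chain attachment site, was close to the counting limit in whole astrocyte TRAP, with 5, 0 and 8 counts (0.135, 0 and 0.176 CPM). The count of 0 allows up to 3 counts, or 0.0794 CPM, in that library, a limit that covers counting error only. Endfeet libraries held 21.0 CPM (library 2) to 54.8 CPM (library 6), with a median of 41.9. Aspn had the highest log2 fold change of the 8, 8.44 (SE 0.998, adjusted p = 3.42e-05, edgeR), and the size of this fold rests on the few whole astrocyte counts. Aspn lies at chr13:49544443-49567565 on the plus strand, and both of its annotated coding transcripts gave the same means.

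The promoters of Bgn and Aspn, the genes with the highest log2 fold changes, are shown because their base composition is opposite, and those of Omd and Ogn because these genes neighbour Aspn on chromosome 13. The sequences are the 250 bases before the RefSeq start in GRCm38.p6, and 6 of the 8 genes had an entry (Dcn and Lum did not). Both strands were searched for the TATA box (TATAAA), the GC box (GGGCGG), an AP-1 site (TGANTCA) and a TEAD site (GGAATG), and capitals mark matches. Over 32851 promoter windows of this length, 12.4% held TATAAA, 32.7% GGGCGG, 6.75% TGANTCA and 12.6% GGAATG, and the median GC content was 52.4%.
Bgn (chrX:73483351-73483600, plus strand): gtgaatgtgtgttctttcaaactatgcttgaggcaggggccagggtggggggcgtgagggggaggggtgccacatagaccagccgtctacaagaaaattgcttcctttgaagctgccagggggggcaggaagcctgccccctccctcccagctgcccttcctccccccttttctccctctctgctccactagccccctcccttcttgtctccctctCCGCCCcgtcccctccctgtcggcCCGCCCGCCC
Aspn (chr13:49544193-49544442, plus strand): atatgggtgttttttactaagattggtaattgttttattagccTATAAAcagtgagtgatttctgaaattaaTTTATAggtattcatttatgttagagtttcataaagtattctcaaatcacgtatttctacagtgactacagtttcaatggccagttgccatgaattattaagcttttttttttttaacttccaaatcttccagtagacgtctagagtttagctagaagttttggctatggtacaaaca
Omd (chr13:49582212-49582461, plus strand): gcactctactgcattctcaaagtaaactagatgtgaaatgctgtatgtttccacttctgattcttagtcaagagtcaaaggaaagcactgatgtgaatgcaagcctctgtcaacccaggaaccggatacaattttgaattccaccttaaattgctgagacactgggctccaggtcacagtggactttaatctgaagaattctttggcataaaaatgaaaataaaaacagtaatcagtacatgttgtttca
Ogn (chr13:49607765-49608014, plus strand): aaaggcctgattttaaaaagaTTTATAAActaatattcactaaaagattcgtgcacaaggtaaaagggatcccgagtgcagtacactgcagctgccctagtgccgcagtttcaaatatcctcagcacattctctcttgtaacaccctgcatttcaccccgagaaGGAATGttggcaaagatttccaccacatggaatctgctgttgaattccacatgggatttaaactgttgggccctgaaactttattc
The Bgn window was 64.4% GC and held 3 GC boxes within its last 34 bases, of which the last pair overlap. The Aspn window was 30% GC and held 2 TATA box matches, at -207 and -178 from the start, far from where a TATA box usually lies. Ogn held 2 overlapping TATA box matches, at -229 and -227, and 1 TEAD match at -86, and Omd, Fmod and Prelp held none of the 4 motifs. A match is a description of letters and not evidence of binding.

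Fmod, Lum, Prelp and Omd form the second class, most members of which carry keratan sulfate or tyrosine sulfate. Fibromodulin (Fmod), a collagen-binding proteoglycan that also attracts the cross-linking enzyme lysyl oxidase, was at 19.6, 30.1 and 35.4 CPM in whole astrocyte libraries 1, 2 and 3. In endfeet TRAP it ranged from 191 CPM (library 6) through a median of 416 to 816 CPM (library 1), a 4.26-fold range, wider than that of Dcn (2.19) or Bgn (1.67). The groups did not overlap, and the log2 fold change was 3.94 (SE 0.495, adjusted p = 5.49e-05, edgeR). Fmod lies at chr1:134037254-134048277 on the plus strand and was counted on a transcript of 3 exons.

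Lumican (Lum), known for the transparency of the cornea, was low and even in whole astrocyte TRAP at 1.43, 1.64 and 1.36 CPM. Endfeet libraries held 41.1 CPM (library 6) to 89.8 CPM (library 5), median 64.8. Lum lies at chr10:97565128-97572703, plus strand. No endfeet library approached the whole astrocyte level, and the log2 fold change was 5.50 (SE 0.504, adjusted p = 4.15e-06, edgeR).

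Prelp, a protein of basement membranes and cartilage that binds heparan sulfate, was the most abundant of the 8 in every whole astrocyte library, at 72.4, 79.9 and 88.1 CPM. Its endfeet values ran from 460 CPM (library 6) through a median of 685 to 1200 CPM (library 2). The log2 fold change of 3.31 (SE 0.377, adjusted p = 2.60e-05, edgeR) was the lowest of the 8. The gene lies at chr1:133910304-133921414 on the minus strand. It shares 350 exonic bases with Gm15851, a gene on the opposite strand, and since the counting of strand is not given in the sources used here, reads of that stretch cannot be told apart.

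Osteomodulin (Omd), a keratan sulfate proteoglycan of mineralized matrix, differed from the other 7 in its wide spread and in the overlap of its groups. It was at 0.838, 2.59 and 1.34 CPM in whole astrocyte TRAP, and at 52.3, 24.7, 12, 2.50, 11.5 and 4.11 CPM in endfeet libraries 1 to 6. The endfeet values spanned 21.0-fold and reached down into the whole astrocyte range. Endfeet libraries 4 and 6 held only 31 and 9 Omd counts. Over the endfeet libraries, Omd rose and fell with Fmod (Pearson's r = 0.9), Prelp (0.86) and Lum (0.72). Its r was lower with Bgn (0.43) and Ogn (0.38) and negative with Aspn (-0.28) and Dcn (-0.47). The log2 fold change was 3.49 (SE 1.07, adjusted p = 0.0225, edgeR). The call was lost without whole astrocyte library 1, 2 or 3 (log2 fold change 3.21, 4.01 and 3.36, adjusted p = 0.100, 0.0549 and 0.0949, edgeR). Fewer of all genes passed as well when 1 of these libraries was left out, with 1874 to 1959 higher in place of 2991. Omd lies at chr13:49582462-49592822, plus strand.

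Osteoglycin (Ogn, also called mimecan), of the third class, binds collagen and is found in bone and vessel walls. It was at 13.3, 22.7 and 21.0 CPM in whole astrocyte TRAP. Endfeet TRAP gave 150 CPM (library 3) to 385 CPM (library 1), with a median of 313, well apart from the whole astrocyte values. Ogn lies at chr13:49608046-49624501, plus strand. The log2 fold change was 3.97 (SE 0.391, adjusted p = 7.41e-06, edgeR).

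Whole astrocyte library 1 was the lowest of the 3 for Dcn, Fmod, Bgn, Ogn, Prelp and Omd, whereas Lum was lowest in library 3 and Aspn in library 2. Library 1 was also the lowest for the summed fibroblast markers (31.4 CPM against 41.3 and 48.1). The same held for the summed ependymal and choroid plexus markers, a sum that is mostly Ttr, and these links were not tested. Without that library the log2 fold changes of the 8 genes stayed between 3.21 and 8.66, and 7 passed the test. Without endfeet library 1, the highest in ependymal and choroid plexus markers, all 8 passed, with Omd at 2.78 and the others at 3.17 (Prelp) to 8.33 (Aspn).

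**Figure D2:**
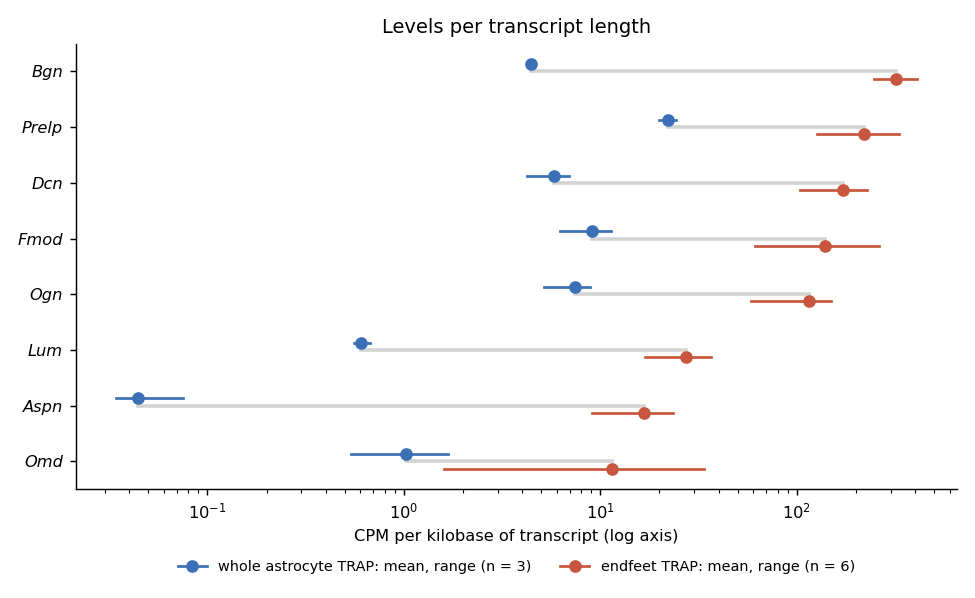
Level of each SLRP mRNA on a log axis, in CPM per kilobase of its transcript. Points are group means and bars span the lowest to the highest library. For Aspn in whole astrocyte TRAP the bar starts at the level of 3 counts in library 2, which had 0 counts. Bgn moved from 4.46 to 320 and became first, whereas Prelp moved from 22.2 to 220 and went from first to the next place.

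Levels can be compared between genes when CPM is divided by transcript length. In whole astrocyte TRAP, Prelp stood first at 22.2 ± 2.17 CPM per kilobase (SD, n = 3), apart from Fmod at 9.09 ± 2.58. Fmod, Ogn (7.41 ± 1.96), Dcn (5.81 ± 1.40) and Bgn (4.46 ± 0.180) followed in this order, and the ranges over libraries overlapped between neighbours. Within every library, however, Fmod stood above Ogn, and Ogn above Dcn and Bgn. Bgn stood above Dcn in library 1 and below it in libraries 2 and 3. A gap separated these from Omd (1.02 ± 0.581) and Lum (0.604 ± 0.0594), which overlapped, and Aspn was last at 0.0445 ± 0.0395.

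The order differed in endfeet TRAP, where Bgn stood first at 320 ± 72.5 CPM per kilobase (SD, n = 6). Prelp (220 ± 84.9), Dcn (171 ± 48.8), Fmod (140 ± 71.4) and Ogn (116 ± 33.5) came next, with overlapping libraries between neighbours. Lum (27.3 ± 7.92) was below every library of Ogn, and Lum, Aspn (16.7 ± 6.04) and Omd (11.5 ± 12) overlapped with their neighbours. Among all genes ranked by this level, Bgn moved from place 8204 (whole astrocyte) to 69 (endfeet), Prelp from 3143 to 116, Dcn from 7364 to 158, and Fmod from 5868 to 206. Omd moved from 11558 to 5432, the lowest endfeet place of the 8. The first place of Bgn depended on the division by length, since Prelp stood above it in mean endfeet CPM (794 and 774). Per kilobase, Prelp stood above Bgn in endfeet library 1.

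Ratios between members within a library show the same shifts without reference to other genes. The level of Bgn per kilobase was 0.191 to 0.215 of that of Prelp in the whole astrocyte libraries and 0.874 to 2.49 of it in the endfeet libraries. Bgn over Dcn was 0.672 to 1.01 and 1.11 to 2.64, so these ranges did not overlap either. Prelp over Fmod was 2.15 to 3.19 and 1.20 to 2.09. Lum over Dcn, by contrast, was 0.0802 to 0.138 and 0.0749 to 0.338, with overlap.

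The levels were next set against the summed CPM of the 12 fibroblast markers (Col1a1, Col1a2, Col3a1, Pdgfra, Lama1, Slc6a13, Islr, Fbln1, Dpt, Pi16, Dpep1 and Mfap5) in the same library. Of the 11 of these tested, 9 were higher in endfeet and 0 lower, with a median log2 fold change of 5.07, including Lama1, a laminin chain (7.70, SE 0.606), Col1a2 (5.99, SE 0.696) and Pi16 (5.92, SE 1.63), whereas Dpep1 was at 5.07 (SE 2.22) and did not pass. Fmod kept the narrowest ratio in endfeet, 36.6% to 49.9% of the marker sum, below its 62.3% to 73.5% in whole astrocyte TRAP. Both Fmod (816 CPM) and the marker sum (1640 CPM) were highest in endfeet library 1, and both were lowest in endfeet library 6 (191 and 492 CPM). The peak of the sum in library 1 came largely from Col1a2, at 766 CPM there and 126 to 320 CPM in the other endfeet libraries. Lum was 5.27% to 8.36% of the marker sum in endfeet and 2.83% to 4.56% in whole astrocyte TRAP.

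Dcn did not follow the marker sum across endfeet libraries. It was 11.2% of the sum in endfeet library 1, 28.7% to 36.0% in libraries 2 to 5 and 80.2% in library 6, a range that takes in the 23.8% to 26.6% of whole astrocyte TRAP. Dcn was lowest in library 1 (183 CPM) and near its highest in library 6 (394 CPM). These libraries had the highest and the lowest marker sum, the highest largely through Col1a2. Bgn was 23.4% to 33.1% of the sum in whole astrocyte TRAP and 40.7% to 123% in endfeet, and Aspn 0% to 0.430% and 2.11% to 11.2%, both without overlap. Prelp went the other way, from 183% to 231% down to 61.8% to 120%. Ogn (42.3% to 54.9% and 18.0% to 61.6%) and Omd (2.67% to 6.27% and 0.334% to 3.20%) overlapped between groups. These directions hold for the fibroblast markers and depend on the marker set. The ratio of means, endfeet over whole astrocyte, was 24.6 for the fibroblast sum, 180 for the mural, 764 for the endothelial and 5.02 for the leptomeningeal sum. Any gene that rose by less than such a sum falls against it. The share of all genes that lie apart in this way was not computed, so these directions cannot be called particular to SLRPs. Against the summed mural markers, all members but Aspn were lower in every endfeet library, with Bgn at 29.5% to 32.8% in whole astrocyte TRAP and 7.37% to 18.8% in endfeet and Lum at 3.96% to 4.54% and 0.624% to 2.43%, and Aspn overlapped (0% to 0.511% and 0.281% to 1.42%). Against the endothelial markers the same 7 were lower, and Aspn again overlapped. Against the leptomeningeal markers, Dcn, Fmod, Lum, Bgn, Ogn and Aspn were higher in every endfeet library, Fmod by the least margin (28.4% to 38.8% and 38.9% to 147%), and Prelp and Omd overlapped.

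**Figure D3:**
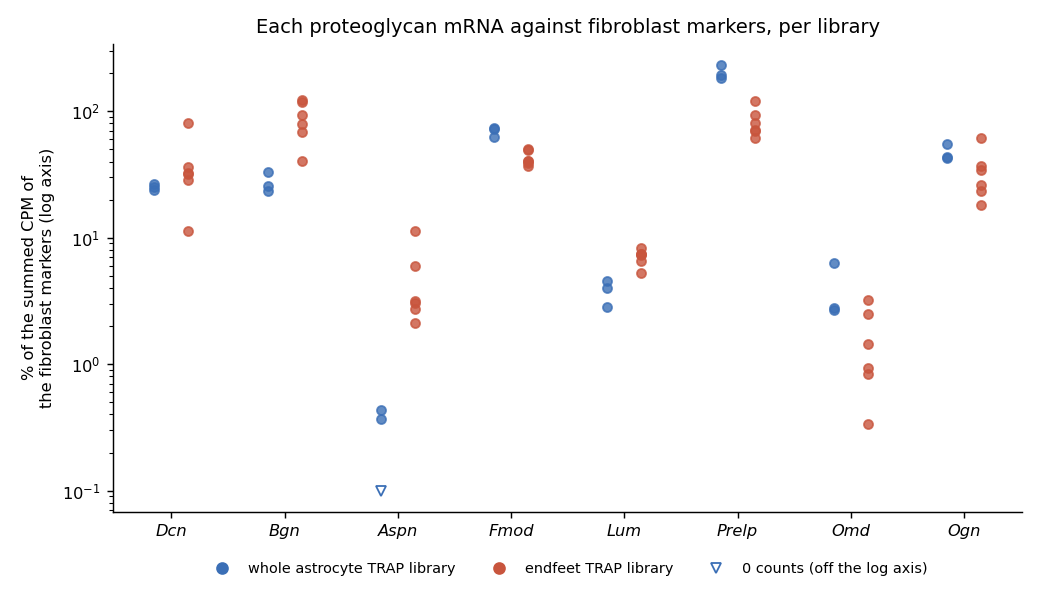
CPM of each SLRP gene as a percentage of the summed CPM of the 12 fibroblast markers in the same library, on a log axis; each point is 1 library, and the open triangle is the library with 0 Aspn counts. Bgn, Aspn and Lum lie higher in all 6 endfeet libraries than in the 3 whole astrocyte libraries, Fmod and Prelp lie lower, and Dcn spreads from 11.2% to 80.2% in endfeet.

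Leptomeningeal markers gave 66.7 to 106 CPM in whole astrocyte TRAP and 289 to 607 CPM in endfeet TRAP. Of these 5 genes, 4 were higher, including Slc47a1 (log2 fold change 5.10, SE 1.61), the anion transporter Slc22a6 (3.84, SE 0.478) and Foxd1 (2.16, SE 0.790), and Crabp2, a retinoic acid binding protein, was at -0.33 (SE 0.645). Microglia and macrophage markers summed to 28.1 to 31.1 and 239 to 351 CPM, with 5 of 8 higher. Neuron markers summed to 3250 to 3810 and 835 to 1680 CPM, with 3 of 5 lower, and oligodendrocyte markers to 217 to 256 and 160 to 428 CPM, with 0 of 5 passing the test.

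The numbers carried by the libraries put endfeet libraries 1 to 3 in an earlier series, and endfeet libraries 4 to 6 and all whole astrocyte libraries in a later one. What the numbers stand for is not given in the sources used here. Between the later and the earlier endfeet libraries, 0 of the 8 SLRP genes passed edgeR's test, at a background of 0.0% of 13483 genes, and DESeq2 called 0 of the 8 and 38 of all genes. At an unadjusted p of at most 0.05 there were 1 SLRP gene and 622 genes in all. That gene was Omd, at 29.7 CPM on average in the earlier and 6.04 CPM in the later libraries (log2 difference -2.28, SE 0.985, adjusted p = 0.964, edgeR). Compared with whole astrocyte TRAP within the later series alone, the 7 other genes passed with log2 fold changes of 2.80 (Prelp) to 8.58 (Aspn), and Omd was at 1.80 (adjusted p = 0.130, edgeR).

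Of the 10 other SLRP genes, 7 were tested, 3 were higher in endfeet and 0 lower. Ecm2, a matrix protein with leucine-rich repeats whose gene lies next to Aspn, was at 2.22, 2.20 and 1.73 CPM in whole astrocyte TRAP and at 64.4 CPM (library 6) to 234 CPM (library 2) in endfeet TRAP. Its groups were far apart, and the log2 fold change was 6.02 (SE 0.563, adjusted p = 4.79e-06, edgeR). Tsku, a secreted inhibitor of several signalling ligands, was also higher (3.31, SE 1.01, adjusted p = 0.0225, edgeR), as was the cartilage protein Chad (3.47, SE 1.10, adjusted p = 0.0270, edgeR). Podn (2.68, SE 1.07), Nyx (3.58, SE 2.05), Optc (1.72, SE 1.08) and Chadl (-0.31, SE 1.0) did not pass. Nyx, known from bipolar cells of the retina, had 113 counts in endfeet library 1 and 0 in libraries 3 and 5. Kera and Podnl1 had 0 counts in all 9 libraries, and Epyc had 35, 27 and 40 counts in whole astrocyte TRAP but 2 counts in endfeet library 1 and 0 in the other 5, so these 3 were not tested.

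Several SLRP genes lie in clusters, and differences in fold change between neighbours were not tested. On chromosome 13, Ecm2, Aspn, Omd and Ogn follow each other on the plus strand with gaps of 11.7, 14.9 and 15.2 kb, and their log2 fold changes were 6.02, 8.44, 3.49 and 3.97. The level of Aspn per kilobase was 0 to 0.0112 of that of Ogn in whole astrocyte TRAP and 0.0626 to 0.199 of it in endfeet TRAP, with no overlap, whereas Omd over Ogn (0.104 to 0.188 and 0.0159 to 0.224) overlapped. All 3 members there lie within the span of Cenpp, a centromere gene on the opposite strand that shares 7 exonic bases with Aspn and 0 with Omd and Ogn, and Cenpp was at 0.04 on the log2 fold change scale and did not pass. On chromosome 10, Dcn (4.88) and Lum (5.50) lie 47.0 kb apart, and Kera, 34.2 kb beyond Lum, had no counts. Epyc, the SLRP gene beyond Kera, was not tested and had 35, 27 and 40 counts in whole astrocyte TRAP. It had 2 counts in endfeet library 1 and 0 in the other endfeet libraries. On chromosome 1, Prelp (3.31) and Fmod (3.94) lie 115.8 kb apart on opposite strands, with Optc 2.3 kb from Prelp.

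**Figure D4:**
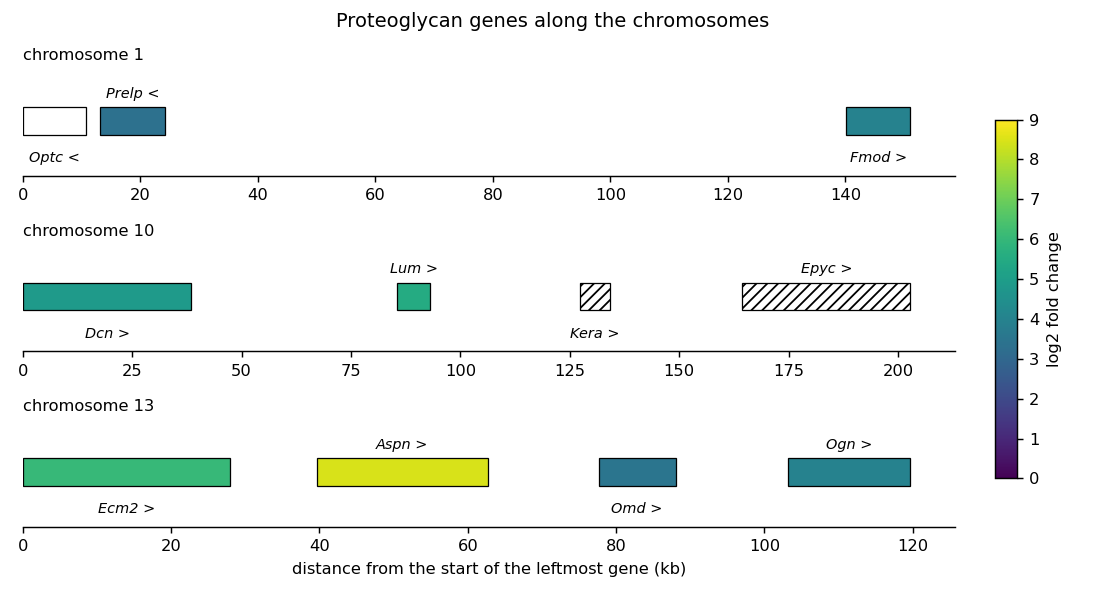
Maps of the 3 chromosome regions that hold more than 1 SLRP gene, with distance in kb from the start of the leftmost gene; colour gives the log2 fold change of genes that passed the test, white boxes did not pass, hatched boxes were not tested, and arrows after the symbols give the strand. On chromosome 13, Aspn (8.44) lies between Ecm2 (6.02) and Omd (3.49).

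Genes that build, bind, receive or cut SLRPs were counted in 7 lists, beside the other SLRP genes. Of the 81 genes in these 8 lists 68 were tested, with 42 higher and 2 lower in endfeet (20.7% and 13.9% of all genes), and the median log2 fold change was 3.19. The total of 44 passing genes came to 27, 29 and 29 without whole astrocyte library 1, 2 and 3. Every endfeet library lay above every whole astrocyte library for 34 of the 68 tested, against 18.9% of all genes tested. Tsku, Xylt2, B4galt7, Tlr2, Tll1 and Adamts5 passed although their groups overlapped, with Tlr2 at 0 counts in endfeet library 1. The same overlap held for the markers Pi16, Slc47a1 and Foxd1. Col1a1, Col1a2 and Col3a1, counted among the collagens, also stand among the fibroblast markers.

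Collagens were the most uniform list, with all 10 tested higher and a median of 5.97. Col14a1 (6.90, SE 1.37), Col12a1 (6.84, SE 0.535) and Col5a1 (6.63, SE 0.905), which sit on or regulate collagen fibrils, led it. The size of the folds of Col14a1 (0, 3 and 3 counts in whole astrocyte TRAP) and Col5a1 (5, 3 and 16 counts) rests on few counts. Col12a1, for example, was at 0.737 ± 0.296 CPM (SD, n = 3) in whole astrocyte TRAP and 85.0 ± 18.8 CPM (SD, n = 6) in endfeet TRAP. Among other binding partners, 6 of 7 tested were higher, including lysyl oxidase Lox (5.90, SE 0.978), fibrillin Fbn1 (5.12, SE 0.815) and tenascin Tnxb (5.02, SE 1.33), and Ccn4 was at 2.73 (SE 1.01) and did not pass.

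Receptors that SLRPs act on were higher in 8 of 11 tested cases. Kdr, the VEGF receptor of endothelial cells (6.95, SE 0.581), Tlr2, an innate immune receptor (4.99, SE 1.41), and Igf1r (4.35, SE 0.433) had the highest values, and Erbb4 was at 0.78 (SE 0.608). Of the proteases, 3 of 6 tested were higher, namely Tll1 (3.93, SE 1.27), Adamts5, an aggrecanase (2.36, SE 0.851), and Bmp1, which trims propeptides of biglycan and collagens (2.20, SE 0.779), and Mmp14 was at 2.12 (SE 0.984) and did not pass.

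Enzymes that make the sugar chains had lower medians than the core proteins. Linker enzymes, which start the chain on the core protein, were higher in 3 of 7 cases, with a median of 1.60, through Xylt2 (3.04, SE 1.11), B4galt7 (2.68, SE 0.899) and the xylose kinase Fam20b (1.60, SE 0.405), and B3gat3 was at -0.45 (SE 0.732). Enzymes of chondroitin and dermatan sulfate were higher in 6 of 15 cases, with a median of 1.99. Dse, the epimerase that turns chondroitin into dermatan sulfate, was at 4.19 (SE 0.707), the dermatan sulfotransferase Chst14 at 3.28 (SE 0.961) and Chst15 at 2.40 (SE 0.404), and Chsy1, a polymerizing enzyme, was at 0.80 (SE 0.418) and did not pass.

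Keratan sulfate enzymes split. The galactosyltransferases B4galt1 (4.88, SE 0.495) and B4galt4 (2.47, SE 0.452) and the N-acetylglucosaminyltransferase B3gnt2 (4.13, SE 0.423), which extend the chain, were higher. The sulfotransferases Chst1 (-1.49) and Chst2 (-1.13) were lower (adjusted p = 0.0146 and 0.0344, edgeR), the only genes of the 8 lists to pass in that direction, and they were named after their values were seen. B3gnt7 and Chst5, also named after their values were seen, had few counts and were not tested. B3gnt7 had 2, 4 and 5 counts in whole astrocyte TRAP and 0 in every endfeet library.

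**Figure D5:**
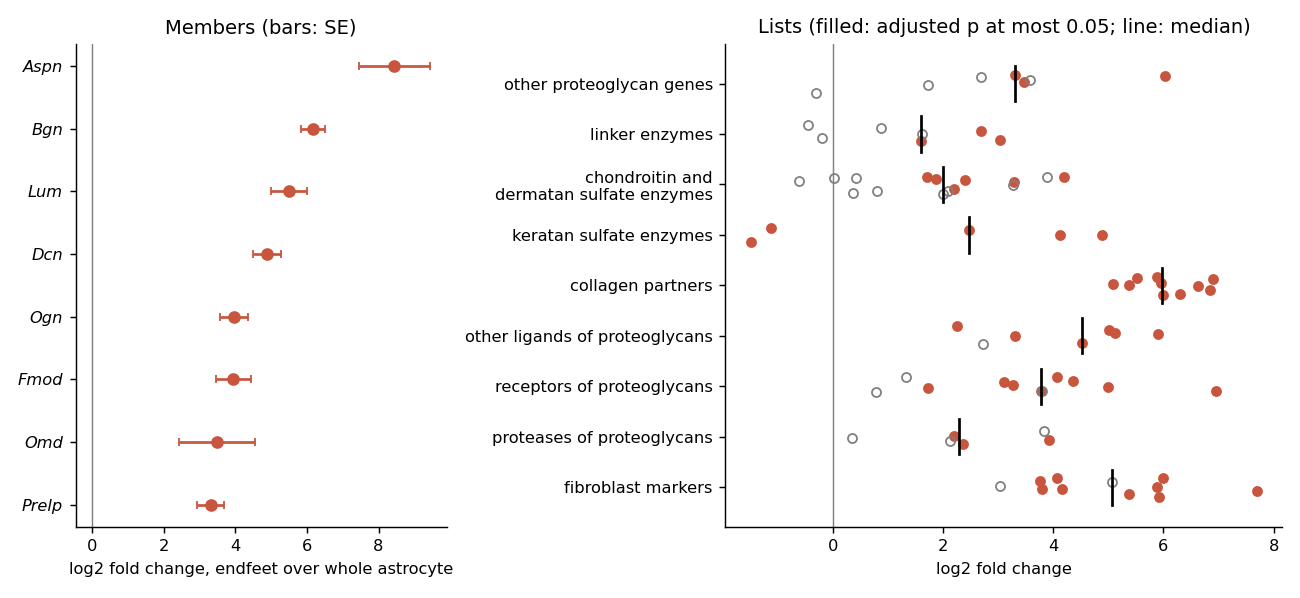
Log2 fold change of endfeet TRAP over whole astrocyte TRAP. On the left, the 8 SLRP genes with SE bars (3.31 for Prelp to 8.44 for Aspn). On the right, all tested genes of the 8 lists and of the fibroblast markers, filled where the adjusted p was at most 0.05, with a line at each median (1.60 for linker enzymes, 5.97 for collagens).

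The genes whose pattern over the 6 endfeet libraries was most like that of each member were sought among 12163 genes with at least 50 normalized counts, by Pearson's r of log2(CPM + 1). The r rests on 6 points, from libraries that differ in depth, and is a description only. For Dcn these were Pdxdc1, Gab1 and Tpd52l2 (r = 0.993 to 0.995), for Fmod Cacna2d2, Supt6 and Nfkbiz (0.992 to 0.993) and for Lum Epb41l2, Wwtr1 and Dgkh (0.988 to 0.993). Bgn was nearest to Polr1a, Ssbp4 and Mrpl38 (0.980 to 0.992), Prelp to Calhm2, Robo1 and Sgce (0.979 to 0.989) and Ogn to Rbfa, Pik3c2a and Exosc9 (0.960 to 0.977). Omd was nearest to Capn10, Bscl2 and Ano6 (0.984 to 0.985), and Aspn to Arl14ep, Atl2 and Lonrf2 (0.977 to 0.991). Of these 24 genes, Pik3c2a, Robo1, Sgce and Ano6 were higher in endfeet, with Ano6 at 3.41 on the log2 fold change scale. This is a smaller share than the 20.7% of all genes tested that were higher.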

How the data were processed

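TRAP RNA of 3 whole astrocyte and 6 endfeet libraries was amplified and sequenced by the authors as 50-base reads, aligned to mm10 with Bowtie, and counted by HTSeq-count on Ensembl transcripts. The authors deposited unscaled counts for each transcript and library, and a read counts on every transcript it overlaps. Of 75466 transcripts, 73164 were matched to 22092 genes, and the transcript with the highest summed CPM stood for its gene. Groups were compared with edgeR 4.0.16 (TMM, filterByExpr, quasi-likelihood F-test) in R 4.3.3, with Benjamini-Hochberg adjustment over all genes tested and a threshold of 0.05, and SE was the log2 fold change over the square root of F. CPM used TMM library sizes, and 3 counts correspond to 0.0658 to 0.0811 CPM in whole astrocyte and 0.197 to 1.37 CPM in endfeet libraries. edgeR shares 1 dispersion per gene between groups, whereas the common dispersion was 0.0142 in whole astrocyte and 0.725 in endfeet TRAP, and limma voom 3.58.1 with group weights and DESeq2 1.42.0 were alternatives. The scripts were tested on simulated data. The members and all gene lists were chosen with earlier results of these data known. All members and other SLRP genes were named, and of each further list described by gene up to 3 passing genes with the largest absolute log2 fold change and the tested gene with the highest level that did not pass.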

Additional observations from a re-analysis of the deposited data

Results flagged for a closer look

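Chad, a cartilage matrix protein of the SLRP family, was at 27.3 CPM in endfeet library 5, apart from the other 5 endfeet libraries, of which the next was library 2 at 9.54 CPM. The gap was 0.686 of the range of the 6 libraries, above Dixon's 95% critical value for a group of this size. The SLRP genes were each examined in this way, and chance alone flags about 1 in 20 such groups.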

How the results depend on the processing

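All 8 SLRP genes were called higher under DESeq2, limma voom, DESeq2 size factors, no filter beyond 1 count, transcript sums, the longest transcript, a minimum absolute log2 fold change of 1 and without any single endfeet library. With at least 10 counts in every library Aspn and Omd were not tested and the other 6 passed. Omd missed the threshold with the number series as a covariate (1.94, adjusted p = 0.116, edgeR), in the later series alone (1.80, 0.130) and without each whole astrocyte library (7 members called). The 44 passing genes of the 8 lists became 27 to 51 when single libraries were left out. The replicate block, run because the groups share library numbers, gave 8 members, 34 list genes and 9 fibroblast markers, but same-numbered libraries did not deviate together (r = -0.00598, -0.00364 and 0.0210), so the numbers were not taken as pairs. Over all genes, 2991 were higher and 2006 lower. limma voom gave 3928 and 4485 and moved the median log2 fold change from 0.10 to -0.29, and without single whole astrocyte libraries 1874 to 1959 were higher and 1171 to 1217 lower. Bgn fell to 3.83 with the longest transcript, where the order of levels changed for 3 members in whole astrocyte and 8 in endfeet TRAP, and CPM without division by length changed it for 2 and 4. Depth limits Aspn, at 0 to 8 counts in whole astrocyte TRAP.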

Other observations

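Protein-coding genes that lie beside the SLRP genes but are no members of the family differed in direction. Btg2, an antiproliferative gene 26.9 kb from Fmod, was at 15.9 CPM on average in whole astrocyte TRAP and 269 CPM in endfeet TRAP (log2 fold change 4.08), and Atp2b3, a calcium pump 7.2 kb from Bgn, at 13.5 and 179 CPM (3.72). The neighbours Nol8, Haus7 and Btg1 were lower in endfeet, at 28.6 kb from Ogn (-1.66), 24.6 kb from Bgn (-2.72) and 856.8 kb from Dcn (-1.70).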
